A study of Mus musculus with 6 samples.

Results

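The genes described are 47 genes that interferons are known to switch on, from the sensors and transcription factors of the pathway to its antiviral effectors. On the Illumina MouseRef-8 v2 array, 44 of the 47 genes had probes under their symbols, 67 probes in all. A probe was analysed when its signal passed the detection test, with a detection p-value under 0.05, on at least 3 of the 6 arrays. This left 51 probes of 38 genes, among 12885 analysed probes of the 25697 on the array. The genes were chosen by name, with earlier results of these data known. Spleen RNA had been hybridised from mice labelled Rag2/pfp KO, 3 arrays, and from mice labelled Wild mouse, 3 arrays, called wild type here. Without Rag2, lymphocytes cannot rearrange their antigen receptor genes, and pfp was once the symbol of Prf1, whose product perforin is what killer cells use to pierce their targets. The labels used here give no age, sex or background strain. Nor do they say if each array had an animal of its own, and the p-values therefore cover only sample-to-sample spread, part or all of which may be technical.

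Interferons bind receptors on the cell surface whose kinases activate STAT proteins. Type I interferon brings STAT2 and IRF9 into a complex that binds interferon-stimulated response elements, while interferon gamma acts through gamma-activated sites. The genes switched on in this way sense viral nucleic acid, block viral entry, translation and release, and feed back on the pathway itself. In the spleen they are known to be induced during infection in macrophages, dendritic cells and lymphocytes alike, and many of them keep a basal level without infection.

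The promoters of 3 members with differences upward (Isg15, Rsad2 and Oasl2) and 2 with differences downward (Gbp3 and Samd9l) are shown first, because the response element is the feature through which these genes are known to be switched on together. Each line gives the 250 bases before an annotated start in RefSeq, on the strand of the gene, and capitals mark matches to the response element searched, which is GAAA, any 2 bases and GAAA again, on either strand.
Isg15, chr4:156200819-156201068, minus strand, GRCm38.p6: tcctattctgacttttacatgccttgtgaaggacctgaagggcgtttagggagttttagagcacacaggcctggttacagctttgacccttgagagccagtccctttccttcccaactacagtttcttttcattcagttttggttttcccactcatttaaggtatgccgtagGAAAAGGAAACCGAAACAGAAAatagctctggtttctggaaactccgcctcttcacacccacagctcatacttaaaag
Rsad2, chr12:26456453-26456702, minus strand, GRCm38.p6: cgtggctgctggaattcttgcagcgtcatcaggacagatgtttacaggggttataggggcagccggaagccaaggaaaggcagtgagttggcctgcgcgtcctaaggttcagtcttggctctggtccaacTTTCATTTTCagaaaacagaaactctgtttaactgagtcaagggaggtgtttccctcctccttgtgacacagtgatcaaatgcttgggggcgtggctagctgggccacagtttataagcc
Gbp3, chr3:142559794-142560043, plus strand, GRCm38.p6: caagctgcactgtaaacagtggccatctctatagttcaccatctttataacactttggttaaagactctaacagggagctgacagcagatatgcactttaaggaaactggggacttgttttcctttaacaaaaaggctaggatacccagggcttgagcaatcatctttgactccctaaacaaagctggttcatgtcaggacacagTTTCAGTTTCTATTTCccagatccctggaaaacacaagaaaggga
Oasl2, chr5:114896684-114896933, plus strand, GRCm38.p6: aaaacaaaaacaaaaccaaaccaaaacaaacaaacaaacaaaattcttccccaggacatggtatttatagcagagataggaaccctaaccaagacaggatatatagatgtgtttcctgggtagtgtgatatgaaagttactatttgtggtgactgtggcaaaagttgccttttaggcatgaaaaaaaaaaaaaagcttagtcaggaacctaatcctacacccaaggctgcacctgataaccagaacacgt
Samd9l, chr6:3399572-3399821, minus strand, GRCm38.p6: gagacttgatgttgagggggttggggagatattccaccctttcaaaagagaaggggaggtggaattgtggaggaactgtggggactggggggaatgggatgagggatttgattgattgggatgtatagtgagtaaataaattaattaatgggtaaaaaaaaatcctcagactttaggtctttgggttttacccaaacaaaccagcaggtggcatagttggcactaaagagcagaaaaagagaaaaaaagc
The Isg15 window held 3 overlapping matches, the first beginning 78 bases before the start, and the Rsad2 window held 1, beginning 120 bases before it. The Gbp3 window held 2 overlapping matches, while the window of its other annotated start held 0, and the Oasl2 and Samd9l windows held 0. Promoters were matched for 35 of the 47 genes, and 13 of these 35, or 37.1%, had a match in the 250 bases before a start, against 936 of all 27025 genes searched in the same way, or 3.46%. Counted by window, 978 of 32851 held a match, or 2.98%. The letters searched for the gamma-activated site, TTCNNNGAA, which reads the same on both strands, were found in 6 of the 35 genes (17.1%), against 8.13% of all genes and 7.02% of all windows. In Bst2 matches to both motifs overlapped. A match is a run of letters, not a measured binding site.

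Before the members are described, the arrays themselves differed in ways that touch them. Between 12084 and 13149 probes were detected per array, and the median raw signal ran from 142.1 to 164.4. The Rag2 probe was detected on 0 of the 6 arrays, and the brighter of the 2 Prf1 probes read 11.04, 12.07 and 11.45 log2 in the knockout and 10.95, 11.05 and 11.58 in wild type, so neither gene checked the labels. Knockout replicate 2 stood apart in Xist, the RNA that coats the inactive X chromosome, at 7.04 and 7.16 log2 on its 2 probes, neither detected there, against 7.98 to 9.62 on the other arrays. Results are therefore also given without that array. All 5 analysed B cell markers and 4 of 5 T cell markers fell in the knockout, among them Cd79b, which passes on signals of the B cell receptor and fell by 4.08 ± 0.12 log2 (SE, n = 3 per group). Cd3e, its counterpart in T cells, was detected on 0 of 3 knockout arrays and was at least 14.3-fold lower (limma adjusted p = 3.44e-05).

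Among the interferon-induced genes, 2 rose in the knockout spleen and 0 fell. The 2 were Oasl2, a member of the oligoadenylate synthetase family, and Rtp4, a chaperone of surface receptors that is also an interferon-induced antiviral gene. They were 3.92% of the 51 member probes, where 3.62% of all analysed probes were called, 1.01% higher and 2.62% lower. By gene they were 2 of 38, or 5.26%, where 1.18% of all analysed genes were called higher and 2.66% lower. Calls were made with limma on the deposited log2 values at a Benjamini-Hochberg adjusted p under 0.05 over all 12885 probes. At an unadjusted p under 0.05, 15 member probes lay higher and 2 lower, against 8.75% and 9.20% of all probes. The knockout arrays lay wholly above the wild-type arrays on 14 of the 51 probes, or 27.5%, and wholly below them on 1, or 1.96%, while over all probes the groups did not overlap on 12.4% higher and 12.0% lower.

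By gene, each taken at its brightest analysed probe, the median difference of the 38 genes was 0.17 log2, against 0.02 for all 9158 analysed genes, and 27 of the 38 differences were above 0, or 71.1% against 53.7%. Differences of at least 0.5 log2 upward were measured in 13 of the 38 genes (34.2%, against 8.15% of all genes) and downward in 3 (7.89%, against 8.17%). The members that passed the detection filter are not the whole list. All of them were detected in both groups, so no probe entered only through the group in which it was high, but these medians and shares describe the members and are no test of them. Of the 51 probes 46 were detected on all 6 arrays and 5 on 3 to 5.

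**Figure D1:**
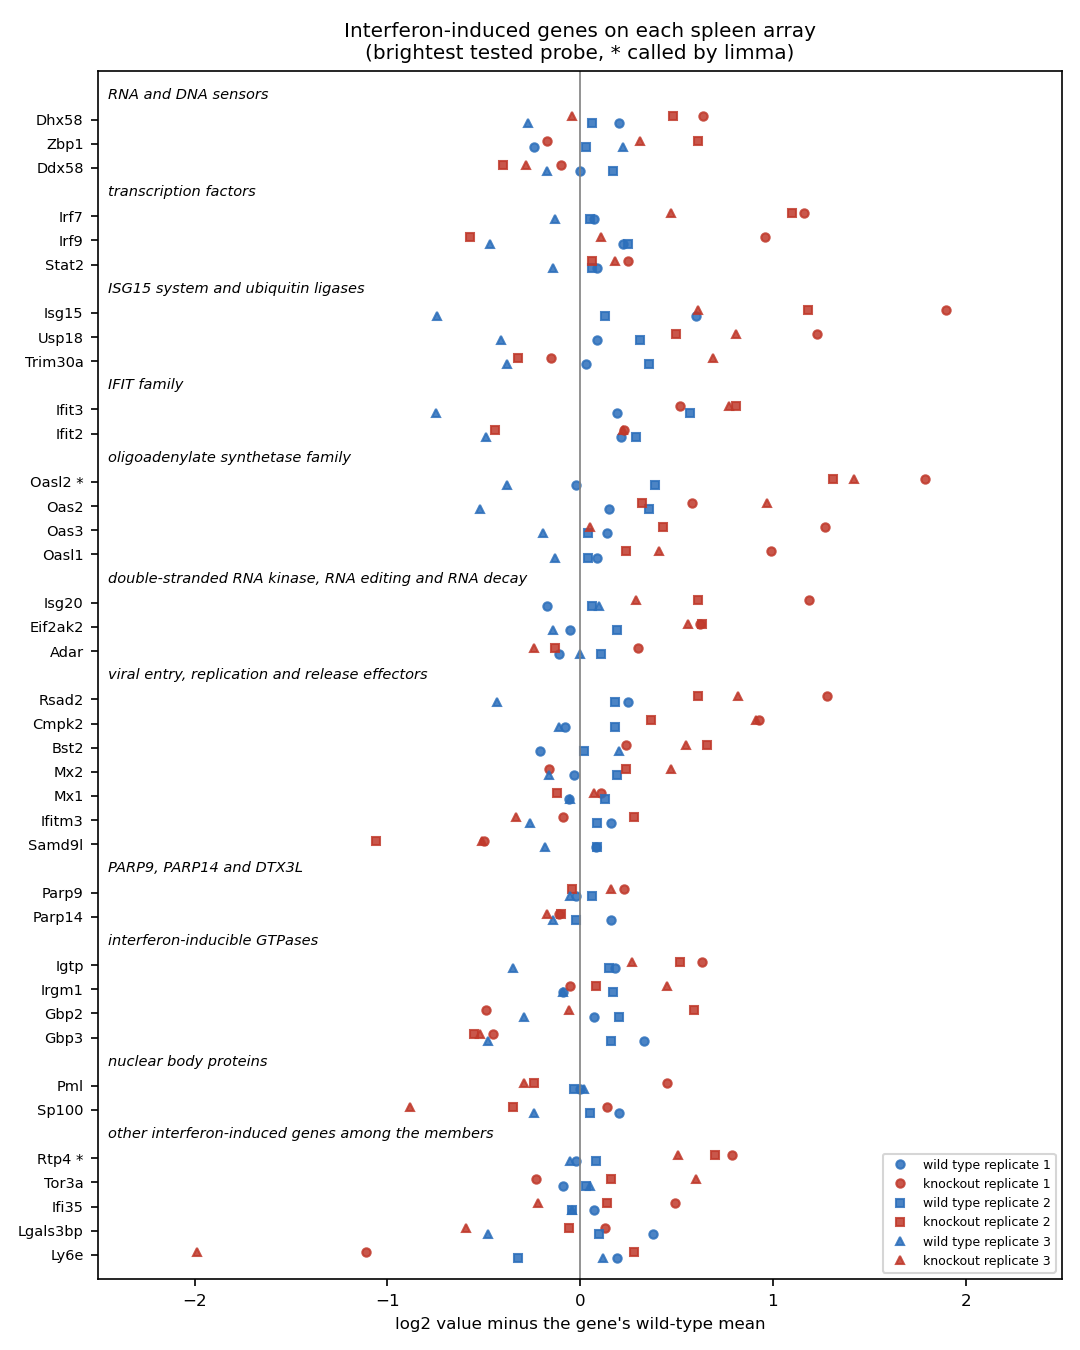
Log2 value of each of the 38 analysed genes on each array, minus the gene's wild-type mean (x axis), at the brightest probe, grouped by role (rows). Red points are the 3 knockout arrays and blue points the 3 wild-type arrays, with circles, squares and triangles for replicates 1, 2 and 3, and an asterisk marks a called gene. The knockout points of 12 genes (31.6%, against 13.2% of all analysed genes) lie wholly to the right of the wild-type points. Those of Samd9l (2.63%, against 12.3%) lie wholly to the left.

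None of the 3 analysed sensor genes was called, and all 3 pairs of groups overlapped. These proteins detect viral nucleic acid in the cytosol and set off interferon production. Dhx58, which encodes the RNA helicase LGP2, read 10.67, 10.51 and 9.99 log2 in the knockout, in the order of the replicates 1 to 3 as in all such lists, and 10.23, 10.09 and 9.76 in wild type. The difference was 0.36 ± 0.22 log2 (SE, limma adjusted p = 0.455). Ddx58, the RNA sensor RIG-I, read 7.92, 7.62 and 7.74 in the knockout and 8.02, 8.19 and 7.85 in wild type, a difference of -0.27 ± 0.15 with an interval from -0.61 to 0.08. Zbp1, a sensor of Z-form nucleic acid, differed by 0.25 ± 0.23 at its detected probe. The probe of Ifih1, the RNA sensor MDA5, was not detected on any array.

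Among the transcription factors Irf7 lay highest over wild type. Irf7 amplifies type I interferon production once a first signal has been received. It read 11.47, 11.41 and 10.78 log2 in the knockout and 10.38, 10.36 and 10.18 in wild type. Every knockout array was above every wild-type array, and replicate 3 was the lowest of the knockout arrays. The difference was 0.91 ± 0.20 log2 (SE) and did not pass the test (limma adjusted p = 0.061), although it was called without knockout replicate 3, at 1.13 log2 (adjusted p = 0.0162), and with array weights, at 0.76 (adjusted p = 0.0478). Its interval ran from 0.43 to 1.39. Stat2 and Irf9, which encode parts of the type I complex, overlapped between the groups. Stat2 read 9.29, 9.10 and 9.22 in the knockout and 9.13, 9.10 and 8.90 in wild type, a difference of 0.16 ± 0.13 (adjusted p = 0.611). The brighter Irf9 probe differed by 0.17 ± 0.39, with knockout values from 9.82 to 11.35, and the other by 0.38 ± 0.21.

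Genes of the ISG15 system were among the members with the largest differences, though none was called. ISG15 is a ubiquitin-like protein that is attached to other proteins, and USP18 removes it and dampens signalling at the type I receptor. Isg15 read 12.54, 11.82 and 11.25 log2 in the knockout and 11.24, 10.77 and 9.90 in wild type. The lowest knockout array lay only 0.01 log2 above the highest wild-type array, and the knockout arrays spanned 1.29 log2 and the wild-type arrays 1.34. The difference was 1.23 ± 0.42 log2 (SE), or 2.35-fold, with a limma adjusted p of 0.176. It was called only with a block for the replicate number (adjusted p = 0.0194), a pairing that the labels do not state. The brightest Usp18 probe read 11.80, 11.07 and 11.38 in the knockout and 10.66, 10.88 and 10.16 in wild type, a difference of 0.85 ± 0.25 (limma adjusted p = 0.124). Its 2 dimmer probes differed by 0.61 ± 0.42 and 0.30 ± 0.24, with overlapping groups, and the dimmest was detected on 4 of 6 arrays. Trim30a, a TRIM protein known in mice to restrain Toll-like receptor signalling, read 9.06, 8.89 and 9.90 in the knockout and 9.24, 9.57 and 8.83 in wild type and differed by 0.07 ± 0.31. The probe of Trim25, a ubiquitin ligase of the RIG-I pathway, was detected on 1 array, and Herc6, a ligase for ISG15 in the mouse, was not analysed here.

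The IFIT genes encode proteins that bind viral RNA and block its translation. The brightest Ifit3 probe read 11.12, 11.41 and 11.37 log2 in the knockout and 10.79, 11.17 and 9.85 in wild type. Wild-type replicate 3 was far below the other arrays, and the groups overlapped. The difference was 0.70 ± 0.32 (SE, limma adjusted p = 0.312), and 0.32 without wild-type replicate 3. The 2 dim Ifit3 probes, detected on 4 and 3 arrays, differed by 0.11 ± 0.18 and 0.07 ± 0.16. Ifit2 read 8.92, 8.25 and 8.91 in the knockout and 8.90, 8.98 and 8.20 in wild type, and its interval of -0.64 to 0.64 was centred on 0. The Ifit1 probe was not detected on any array.

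All 4 analysed genes of the oligoadenylate synthetase family read higher in the knockout mean, and 1 was called. The synthetases among them make, on contact with double-stranded RNA, the messenger that turns on RNase L. Oasl2 read 11.91, 11.43 and 11.54 log2 in the knockout and 10.10, 10.51 and 9.74 in wild type. The lowest knockout array stood 0.92 log2 above the highest wild-type array. Oasl2 rose by 1.51 ± 0.23 log2 (SE), or 2.85-fold, with a limma adjusted p of 0.0186, and ranked number 5 among all 12885 probes by size of increase. The call was lost without wild-type replicate 1 (adjusted p = 0.102), without wild-type replicate 3 (1.32 log2, adjusted p = 0.066) and without between-array normalization (1.25, adjusted p = 0.0958). The second Oasl2 probe read 10.02, 9.01 and 8.20 in the knockout and 8.54, 8.35 and 7.94 in wild type. Its groups overlapped, and its difference of 0.80 ± 0.43 was not called (adjusted p = 0.400). It was 0.33 without knockout replicate 1 and 1.23 without knockout replicate 3.

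Oasl1, which in mice limits the translation of Irf7 and lacks synthetase activity, had 2 probes that agreed closely. The brighter read 9.31, 8.56 and 8.73 log2 in the knockout and 8.41, 8.36 and 8.19 in wild type, a difference of 0.55 ± 0.21 (SE, limma adjusted p = 0.222), and the other differed by 0.57 ± 0.22. The knockout arrays lay above the wild-type arrays on both probes. Oas2 differed by 0.63 ± 0.27 and Oas3 by 0.59 ± 0.30, with overlapping groups. Knockout replicate 1 was the highest array for Oas3, at 9.14 against 8.30 and 7.92 on the other knockout arrays. The Oas1a probe was detected on 1 array.

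Of the RNA-acting enzymes, Isg20 and Eif2ak2 lay above wild type on every knockout array without being called. Isg20, an exonuclease, read 10.29, 9.71 and 9.39 log2 in the knockout and 8.93, 9.16 and 9.20 in wild type and differed by 0.70 ± 0.23 (SE, limma adjusted p = 0.171). Eif2ak2, the kinase PKR that shuts down translation on contact with double-stranded RNA, read 11.18, 11.19 and 11.12 in the knockout and 10.51, 10.75 and 10.42 in wild type. Its knockout arrays spanned 0.08 log2, and its difference was 0.60 ± 0.13 (adjusted p = 0.061). Adar, which edits adenosine to inosine in RNA, had 3 analysed probes that did not point one way. Its brightest read 9.87, 9.44 and 9.33 in the knockout and 9.46, 9.68 and 9.57 in wild type, a difference of -0.02 ± 0.17, while the others differed by 0.43 ± 0.14 and 0.15 ± 0.29. The 3 probes can report different transcripts of the gene, which was not tested.

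The effectors that act on viral entry, replication and release went both ways. Rsad2, or viperin, makes a nucleotide that stops viral RNA synthesis. It read 14.76, 14.09 and 14.30 log2 in the knockout and 13.73, 13.66 and 13.05 in wild type, with the groups apart. The difference was 0.91 ± 0.24 (SE, limma adjusted p = 0.099), and it was called only with median centring, at 1.16 log2 (adjusted p = 0.0394), a scaling that also moved the median of all probes to 0.13. Cmpk2, a nucleotide kinase gene that neighbours Rsad2 on chromosome 12, read 11.14, 10.58 and 11.12 in the knockout and 10.13, 10.39 and 10.10 in wild type, a difference of 0.74 ± 0.19 (adjusted p = 0.0844). Bst2, the tether that holds budding virus at the cell surface, differed by 0.48 ± 0.17, also with all knockout arrays above all wild-type arrays.

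Samd9l, a restriction factor for poxviruses, was the 1 member whose knockout arrays all lay below wild type. It read 12.27, 11.71 and 12.26 log2 in the knockout and 12.85, 12.86 and 12.59 in wild type. The difference was -0.69 ± 0.19 (SE, limma adjusted p = 0.106), and it was called lower with array weights, at -0.74 (adjusted p = 0.048). The Mx genes, dynamin-like GTPases that trap viral nucleocapsids, were not called, with Mx2 at 0.18 ± 0.19 and Mx1, detected on 3 arrays, at 0.02 ± 0.13. Ifitm3, which blocks fusion of virus with the cell, was bright on all arrays, from 13.42 to 14.03 log2, and differed by -0.04 ± 0.20.

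**Figure D2:**
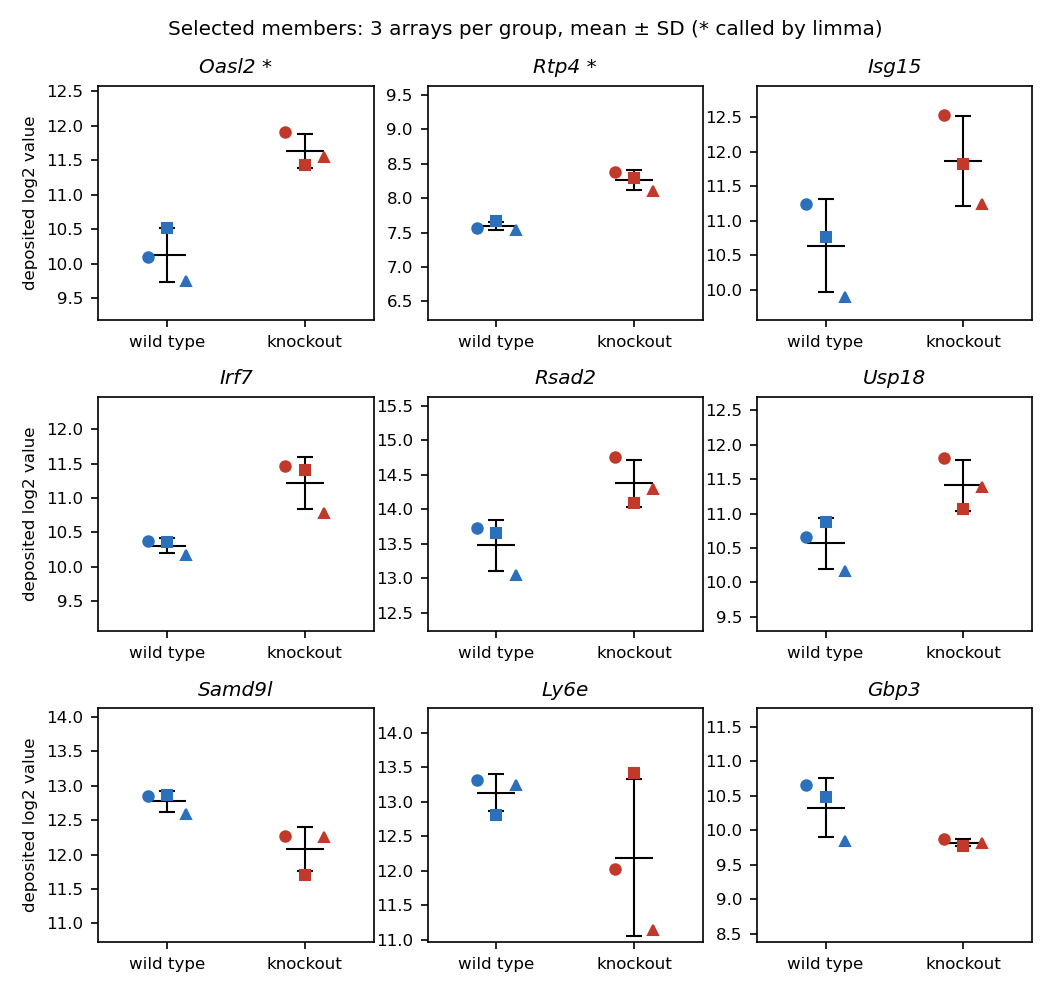
Deposited log2 values (y axis, the same span in each panel) of 9 members on the 3 wild-type arrays (blue) and the 3 knockout arrays (red), with circles, squares and triangles for replicates 1, 2 and 3 and bars for the mean ± SD. The groups part by 0.92 log2 for Oasl2 and 0.43 for Rtp4, both called. They part by 0.40 for Irf7, 0.37 for Rsad2, 0.19 for Usp18 and 0.01 for Isg15, none of them called. Samd9l parts downward, also uncalled, and the groups overlap for Ly6e and Gbp3.

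PARP9 works with the ubiquitin ligase DTX3L, and PARP14 is a related ADP-ribosyltransferase of interferon-treated macrophages. Parp9, detected on 3 arrays, read 7.43, 7.16 and 7.36 log2 in the knockout and 7.18, 7.26 and 7.15 in wild type, a difference of 0.12 ± 0.13 (SE). Parp14 read 11.77, 11.78 and 11.71 in the knockout and 12.04, 11.86 and 11.74 in wild type and differed by -0.13 ± 0.13, with an interval from -0.43 to 0.18. Both pairs of groups overlapped. Dtx3l was not analysed here.

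The GTPases, which interferon gamma induces most strongly and which attack the vacuoles of intracellular pathogens, showed no common direction. Igtp read 12.09, 11.98 and 11.73 log2 in the knockout and 11.64, 11.61 and 11.11 in wild type, a difference of 0.48 ± 0.19 (SE, limma adjusted p = 0.238) with groups apart. Gbp3 went the other way on both of its probes. The brighter read 9.88, 9.78 and 9.81 in the knockout and 10.66, 10.49 and 9.85 in wild type, a difference of -0.51 ± 0.22 (adjusted p = 0.278), and the other differed by -0.40 ± 0.28. Wild-type replicate 3 lay with the knockout arrays for Gbp3. Irgm1, a regulator of the other GTPases, differed by 0.16 ± 0.17 and 0.33 ± 0.23 on its 2 analysed probes, and Gbp2 by 0.02 ± 0.28. The 2 probes of Iigp1 were not detected on any array.

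Neither nuclear body gene was called, and the groups overlapped for both. Pml, the scaffold of these bodies, read 12.27, 11.58 and 11.53 log2 in the knockout and 11.82, 11.79 and 11.84 in wild type, a difference of -0.02 ± 0.21 (SE). Sp100, another component, read 9.04, 8.55 and 8.02 in the knockout and 9.10, 8.95 and 8.66 in wild type and differed by -0.36 ± 0.26 (limma adjusted p = 0.563). Both had knockout replicate 1 as the highest of the knockout arrays.

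Rtp4 was the second gene called among the members. It read 8.38, 8.29 and 8.10 log2 in the knockout and 7.57, 7.67 and 7.54 in wild type. The lowest knockout array stood 0.43 log2 above the highest wild-type array. Rtp4 rose by 0.66 ± 0.13 log2 (SE), or 1.58-fold, with a limma adjusted p of 0.041. After background correction with neqc the difference was 1.29 log2 (adjusted p = 0.0191). Of 17 alternatives the call was lost in 10, with adjusted p up to 0.269, among them leaving out any array except knockout replicate 3, and every alternative kept a positive difference, from 0.41 to 1.29.

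Ly6e, a GPI-anchored surface protein, had the largest mean difference downward and the widest spread of the members. It read 12.02, 13.41 and 11.14 log2 in the knockout and 13.32, 12.81 and 13.25 in wild type. Knockout replicate 2 was the highest of all 6 arrays and replicate 3 the lowest. The difference was -0.94 ± 0.52 (SE, limma adjusted p = 0.415), and without knockout replicate 2 it was -1.54 and called (adjusted p = 0.0429). Without knockout replicate 3 it was -0.41 (adjusted p = 0.672). Ifi35, Tor3a and Lgals3bp, a secreted glycoprotein, differed by 0.14 ± 0.19, 0.18 ± 0.21 and -0.17 ± 0.27 at their brightest probes. The Xaf1 probe was not detected, and Ifi44 was not analysed here. Of the 10 members with more than 1 analysed probe, 7 had all probes on 1 side of 0, and the probes of Oasl2, Usp18 and Ifit3 lay over 0.5 log2 apart.

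The order of the arrays within each group was uneven among the members. Wild-type replicate 3 was the lowest wild-type array for 29 of the 38 genes, or 76.3%, against 34.0% of all analysed genes, and knockout replicate 1 was the highest knockout array for 25, or 65.8% against 31.9%. All knockout arrays lay above all wild-type arrays for 12 of the 38 genes, or 31.6%, against 13.2% of all analysed genes. Of these 12, 10 had replicate 3 as the lowest wild-type array and 10 had replicate 1 as the highest knockout array. The gap itself is set by the lowest knockout and the highest wild-type array. Relative to the wild-type mean, the median over the 38 genes was 0.27, 0.26 and 0.25 log2 for the knockout arrays, in order, and 0.08, 0.10 and -0.16 for the wild-type arrays. Each knockout array therefore lay above each wild-type array in this median. Without wild-type replicate 3, 0 member probes were called, 31 of 51 differences were above 0 in place of 38, and the median over the 51 probes was 0.12 log2 in place of 0.18. Without wild-type replicate 1 or 2, 0 and 1 member probes were called and the median was 0.23 and 0.26. Over all probes, too, the calls of higher signal went from 130 to 17, 1 and 2 without wild-type replicates 3, 1 and 2. Without knockout replicate 1 the member median was 0.18, with Oasl2 called. Without knockout replicate 2, the array that differed in Xist, Oasl2 and Cmpk2 were called higher and Ly6e lower, and the median was 0.27.

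**Figure D3:**
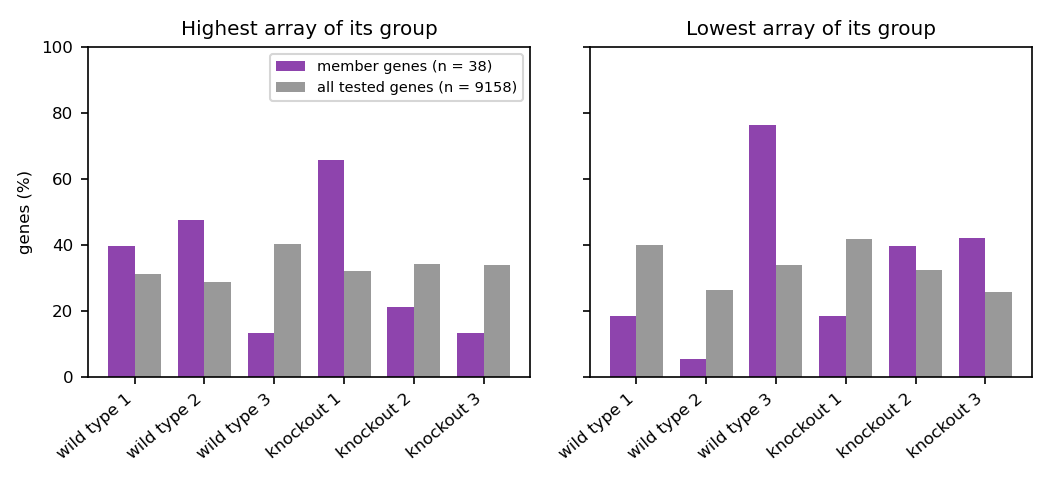
Percentage of genes (y axis) for which each array (x axis) had the highest value of its group of 3 (left) or the lowest (right), for the 38 member genes in purple and all 9158 analysed genes in grey. Wild-type replicate 3 was lowest for 76.3% of the members and knockout replicate 1 highest for 65.8%.

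Markers of several cell types moved with the groups or with these arrays. In whole spleen, fewer cells of a type and less RNA per cell cannot be told apart. A sum of linear signal is carried mostly by its brightest genes. The summed linear signal of the 6 analysed macrophage markers was 35434 on wild-type replicate 3, against 55678 and 51208 on the other wild-type arrays and 37377 to 57116 in the knockout, with 0 of the 6 called. Of the 6, 3 were above 0, from -0.30 to 0.29 log2. Slc40a1, the iron exporter, differed by 0.01 ± 0.26 log2 and Vcam1 by -0.27 ± 0.31. The 3 analysed monocyte markers summed to 6163 on wild-type replicate 3, 11225 and 9058 on the other wild-type arrays and 3374 to 4056 in the knockout. Lyz2, lysozyme, fell by 1.57 ± 0.26 log2 (limma adjusted p = 0.0263). It was the brightest of the 3 and made up most of the wild-type sums. The other 2 were not called and their groups overlapped, with F13a1 at -0.44 ± 0.27. Neutrophil markers summed to 35107 on knockout replicate 1 and to 87100 and 92735 on the other knockout arrays. In wild type they summed to 144848 to 155509. Of the 7, 2 fell, and 6 were lower at an unadjusted p under 0.05, against 9.52% of all analysed genes. The knockout arrays lay wholly below wild type for all 7, against 12.3% of all analysed genes. Ngp differed by -2.25 ± 0.33 log2 and Elane, neutrophil elastase, by -1.88 ± 0.28.

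Erythroid markers were higher in the knockout, with 4 of 5 called and summed signals of 89460 to 100820 against 61352 to 66064. Among them Klf1 rose by 1.25 ± 0.17 log2, Ank1 by 1.25 ± 0.23 and Epor by 1.14 ± 0.24. Markers of plasmacytoid dendritic cells, the type known for the most interferon per cell, summed to 3221, 5044 and 7111 on the knockout arrays, in order, and to 6870 to 7638 in wild type. Of the 6 analysed, all were below 0 (median -0.42 log2), and for 3 the knockout arrays lay wholly below wild type. Only 1 was called, Spib, a factor that B cells also express, which fell by 1.14 ± 0.19 log2 (limma adjusted p = 0.0244). Siglech, a receptor of these cells, differed by -0.04 ± 0.43, and Tcf4 by -0.76 ± 0.29. Of the other marker lists, 0 of 2 conventional dendritic cell genes (Batf3 at 0.55 ± 0.42 and Zbtb46 at 0.45 ± 0.14) and 0 of 4 natural killer genes (Nkg7 at -0.61 ± 0.35 and Klrd1 at 0.15 ± 0.18) were called. Of the 4 natural killer genes, 3 were above 0 (median 0.32 log2), and for 2 the knockout arrays lay wholly above wild type. The part of these cell types in the values of the interferon-induced genes was not tested.

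Other genes of the pathway, from 2 further lists, held no call. Of 31 genes of interferon signalling listed, 23 were analysed, and limma called 0, with 0 at an unadjusted p under 0.05 higher and 1 lower, against 9.49% and 9.52% of all analysed genes. The knockout arrays lay wholly above wild type for 1 and wholly below for 3. Their median was -0.13 log2, and 6 of the 23 were above 0. The brightest, the transcription factor genes Irf1 and Irf3, differed by -0.11 ± 0.35 and -0.33 ± 0.17 (SE). Of 58 further interferon-induced genes listed, 35 were analysed, again with 0 called, and 3 higher and 2 lower at an unadjusted p under 0.05. Their median was 0.01 log2, with 19 above 0 and the highest difference at 0.91. In 5 of the 35 (14.3%) the knockout arrays lay wholly above wild type and in 3 (8.57%) wholly below, against 13.2% and 12.3% of all analysed genes. Uba7, the activating enzyme for ISG15, was the brightest along with Ifi27. Uba7 differed by 0.48 ± 0.13 log2 (adjusted p = 0.0974) and Ifi27 by 0.29 ± 0.14 (adjusted p = 0.359), both with groups apart.

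**Figure D4:**
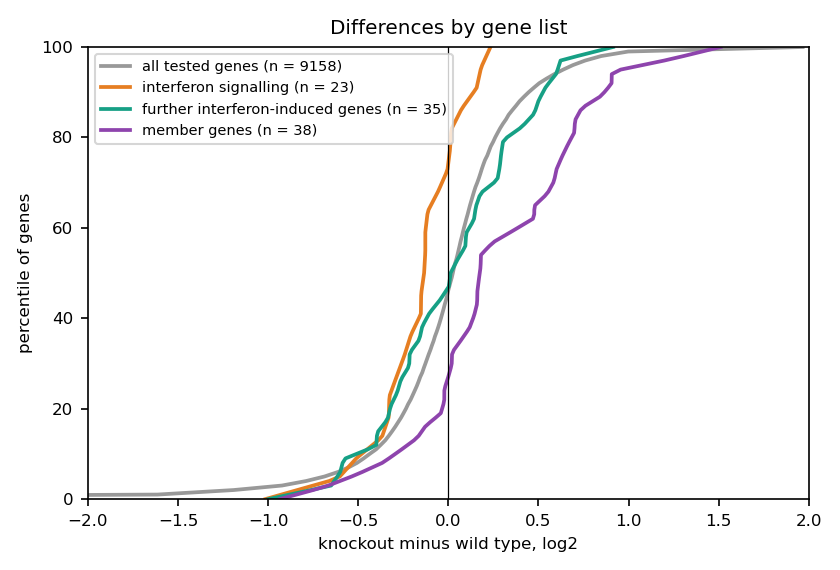
Percentile of genes (y axis) against the knockout minus wild-type difference in log2 (x axis, shown from -2 to 2) for the 38 member genes, 35 further interferon-induced genes, 23 interferon signalling genes and all 9158 analysed genes. The member curve lies to the right, with a median of 0.17, and the signalling curve to the left, with a median of -0.13, while the further interferon-induced genes follow all genes near 0.

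The members' differences were also set beside their promoter motifs. Of the 38 analysed members, 27 had a promoter window. Those without a window, left out here, include the called Rtp4, Usp18 and Oas2, and also Ly6e, the member furthest downward. Of the 27, 11 held a match to the response element, with a median difference of 0.48 log2 and 10 of 11 above 0. The other 16 held none, with a median of 0.07 and 8 of 16 above 0. Over all analysed genes 53.7% were above 0. Differences of at least 0.5 log2 upward were measured in 4 of the 11 and 6 of the 16, against 8.15% of all analysed genes. For the gamma-activated site, the 5 with a match had a median of 0.48, with 4 above 0. The 22 without had a median of 0.15, with 14 above 0. Bst2 and Igtp, each at 0.48, held matches to both motifs, so the medians of the motif groups rest partly on the same genes. The 1 gene below 0 among the 11 was Gbp3, whose window is printed above. Over all analysed genes with a window, the median was 0.01 log2 for the 267 with a match and 0.03 for the 7193 without, and 1.12% and 1.25% were called higher. These are counts of letters beside measured differences, and no test was made of them. Oasl2, the member with the largest difference, had no match in the window printed above, which says only that these letters are not in those 250 bases.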

How the data were processed

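Per the file headers, one deposited table gives each probe's signal intensity before any normalization and its detection p-value on each array. The submitters' processing notes name GenomeStudio 2011.1 without settings. A second deposited table holds log2 values of unstated method. They matched quantile-normalized log2 intensity, without background correction, within 5e-07 on every probe, with a median of 7.24 on each array and no centring of genes, so their scale and direction are known. Quantile normalization removes a shift shared by most transcripts, and uncorrected background shrinks differences of dim probes.

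The deposited log2 values were fitted with lmFit and eBayes in limma 3.58.1 (R 4.3.3), two-sided, with group as the only term, over the 12885 probes with a detection p-value under 0.05 on at least 3 of 6 arrays. Intervals are 95%. The fit was tested on simulated data with independent noise for each probe, so deviations shared by many probes of an array were not covered. With 3 arrays per group, their number sets the precision. Probes were named from the platform annotation, updated through RefSeq (GRCm38.p6): 23978 probes had 1 symbol, 0 several and 1719 none here. Where a gene stands for several probes, the brightest analysed probe was used. A gene not detected in 1 group is given as at least N-fold, against the dim group's mean, with each array's value raised to its lowest detected signal where it lay below.

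Members, roles and lists were chosen with earlier results of these data known. Values on all arrays are given for called probes, for the highest and lowest gene of each role and for genes whose probes lay over 0.5 log2 apart. From each list up to 3 called genes were named, or the 2 brightest where fewer than 2 were called, with any called gene. Irf9, Zbp1, Cmpk2, Eif2ak2 and other members beyond this rule are named to account for the list, after their values were seen. Slfn1 and Helz2 are likewise named beyond it, to give the downward side of their list. Alternatives were neqc background correction, 3 other scalings, other detection filters, eBayes with trend and robust settings, weights per array, a block for the replicate number and each array left out.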

Additional observations from a re-analysis of the deposited data

How the results depend on the processing

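Oasl2 kept its call in 14 of 17 alternatives and Rtp4 in 7. Called member probes numbered 2 higher and 0 lower. They were 0 higher without between-array normalization, where the median of all probes was -0.20 and that of the member probes -0.01. They were 1 higher with cyclic loess, with detection on all 6 arrays and with detection p under 0.01, and 3 higher with median centring, where the member median was 0.33. They were 3 higher and 1 lower with array weights. Leaving out 1 array gave 0 to 3 higher and 0 to 1 lower. Over all analysed probes the 467 calls became 798 without between-array normalization and 755 with array weights, and 113 to 638 with 1 array left out. The share of calls that were higher, 27.8%, was 1.25% without between-array normalization and 37.2% with median centring. The labels do not say if arrays were paired across the groups. The array headers carry numbers of their own, whose meaning is not given, and these match across the groups for replicate 1 only. Same-numbered deviations from the group means correlated at 0.501, -0.332 and -0.080, and 1 of 3 knockout arrays correlated best with its own number. Knockout replicate 2 correlated best with wild-type replicate 3 (0.525), and knockout replicate 3 with wild-type replicate 2 (0.564). Such correlations cannot settle whether arrays shared a batch, which was not tested. With the replicate block 247 probes were called, and Isg15, at 1.23 log2 (adjusted p = 0.0194), and Oasl2 among the members. Uncalled differences near 0 changed sign. Without between-array normalization Trim30a was -0.28, the dimmest Ifit3 probe -0.01 and Stat2 -0.19. With array weights that Ifit3 probe was -0.01. With median centring Pml was 0.13, Parp14 0.02 and Ifit2 0.01, and with neqc Ifit2 was 0.00. With 1 array left out, Trim30a ran from -0.24 to 0.27, the dim Ifit3 probes from -0.05 to 0.16 and from -0.01 to 0.23, Pml from -0.26 to 0.11, Ifit2 from -0.25 to 0.22 and Adar from -0.18 to 0.09. The cause of these changes was not tested.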
